A study of Macaca mulatta with 38 samples.

Results

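Transient myeloid barcodes were the barcodes read in granulocytes or monocytes of day 32 and in no library after that. They were chosen by 3 conditions on the deposited counts. A member had reads in the Gr or the Mono library of day 32, was listed at 0 in the T library of day 32, and was listed at 0 in all 34 libraries of day 119 or later. A count in the B library of day 32 was neither required nor barred. 4229 of the 44423 sequences in the table met these conditions. They were 26.9% of the 15744 barcodes listed in Gr or Mono of day 32, and 27.2% of the 15550 that were also listed at 0 in T of that day (exact 95% interval 26.5 to 27.9%). The other 11321 of those 15550 were listed in some later library and are called returning barcodes below.

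The animal was ZL34, a rhesus macaque of 4 years and a male. It was given back its own CD34+ cells after TBI. The cells had been mobilised with G-CSF and AMD1300, as the labels spell it, and transduced at an MOI of 25 with a lentiviral barcode library. Weekly cidofovir at 5 mg/kg was given against CMV. All 38 libraries came from this animal's peripheral blood, so there was no untransplanted or untreated group, and each lineage and day had 1 library. The lineage names below are those of the table (Gr for granulocytes, Mono for monocytes), which holds no marker by which a sorted lineage could be checked. No value below has a replicate, and no test between conditions was possible. Intervals are exact Clopper-Pearson intervals at 95%. They cover counting error only and treat reads, or barcodes, as independent draws, which PCR reads without molecular identifiers and barcodes of 1 cell are not.

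Barcoding marks each transduced stem or progenitor cell with an inherited DNA tag, so the tags read in a mature lineage show which marked cells fed it. After a transplant, the first blood cells come in large part from progenitors that divide for a limited time, and long-lived stem cells take over later. Granulocytes live only days in blood and are a near-immediate readout of marrow output, whereas T and B cells can persist for long periods. A cell that took up several vector copies carries several barcodes, so a count of barcodes is not a count of cells. Barcodes seen on 1 day have no time course by which they could be joined into clones.

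The smallest count above 0 in the table was 101, so a listed 0 is read here as at most 100 reads, a limit inferred from the values. The day 32 libraries held 1438491 kept reads (Gr), 1922035 (Mono), 2549287 (B) and 1718938 (T), against 766039 to 3832849 over all libraries. The limit of 100 reads corresponded to 0.00695% of the Gr library of day 32 and to 0.00520% of the Mono library. For B it was 0.00392% and for T 0.00582%. The T library of day 32 stood apart. It listed 525 barcodes, against 8820 in Gr, 10210 in Mono and 15815 in B, and its barcodes had a median of 3459 reads, or 0.201% each. Its condition removed 35 barcodes that met every other one, and without it there were 4264 members.

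The sequences of the 10 members with the highest day 32 share are shown first, since these are the members whose counts lay farthest above the limit. Members were numbered TM1 to TM4229 by the higher of their Gr and Mono percent of reads. Each sequence is given 5′ to 3′ up to the sequencing adapter. Lower case marks the start that nearly all barcodes share, 6 bases long or 7 where the read began 1 base earlier, as in TM2. Capitals mark the variable part. In TM2, TM9 and TM10 the adapter start was not found exactly, and the first 33 bases are given.
TM1: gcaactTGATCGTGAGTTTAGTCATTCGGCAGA
TM2: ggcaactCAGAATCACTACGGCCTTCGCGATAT
TM3: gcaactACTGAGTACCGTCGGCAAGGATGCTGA
TM4: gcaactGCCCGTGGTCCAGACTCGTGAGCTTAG
TM5: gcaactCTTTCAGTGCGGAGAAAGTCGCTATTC
TM6: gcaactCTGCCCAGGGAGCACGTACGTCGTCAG
TM7: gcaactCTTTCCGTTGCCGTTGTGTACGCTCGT
TM8: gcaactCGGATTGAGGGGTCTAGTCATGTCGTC
TM9: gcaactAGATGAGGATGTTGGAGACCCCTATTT
TM10: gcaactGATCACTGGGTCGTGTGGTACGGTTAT

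Most members were read in 1 of the 2 myeloid lineages. 1865 (44.1%) were in Gr only, 1881 (44.5%) in Mono only and 483 (11.4%) in both. Among all 15744 barcodes of Gr or Mono at day 32, 20.9% were listed in both, so the share in both was lower in members than in the whole. 1031 members (24.4%) were also listed in B of day 32, where the share over all 15744 was 32.4%. The largest classes were the 1443 members in Mono without B and the 1403 in Gr without B. The classes with B held 438 members in Mono only, 462 in Gr only and 131 in both, and 352 members were in both without B. These counts describe 1 animal on 1 day, and the Gr and Mono limits of 100 reads differ as a percent of reads.

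Members made up 26.6% of the barcodes listed in Gr of day 32 and 23.2% of those in Mono, and somewhat less of their reads. In Gr, 2348 members held 23.7% of reads (23.7 to 23.8%). In Mono, 2364 members held 19.8% (19.7 to 19.8%). In B, 1031 members held 6.44% (6.41 to 6.47%). Of the Gr reads, 13.7% lay in members of Gr only without B, 4.61% in members of Gr only with B, 3.91% in members of both without B and 1.53% in members of both with B. Of the Mono reads, 11.6% lay in members of Mono only without B, 3.70% in Mono only with B, 3.21% in both without B and 1.21% in both with B. The bulk of the myeloid reads of day 32 belonged to the returning barcodes, with 74.7% in Gr and 78.8% in Mono.

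The share of members was spread evenly over many barcodes of low level. The effective number of members, the exponential of the Shannon entropy of their reads, was 2250 of 2348 in Gr and 2210 of 2364 in Mono. Listed counts start at 101 and the rule leaves few barcodes of high level, so such evenness is partly built in. It was not computed for the returning barcodes. The 10 highest members held 1.26% of all member reads in Gr and 1.61% in Mono. The median member had 131 reads in Gr (0.00911%) and 138 in Mono (0.00718%), close to the smallest count listed. The returning barcodes were also near it, with medians of 146 in Gr and 157 in Mono. In Gr 88.8% of members had under 200 reads, and in Mono 81.4% did. The highest count was 492 in Gr and 1817 in Mono. By the higher of its Gr and Mono shares, 69.4% of members were at 0.01% of reads or less, and 57 were above 0.02%.

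TM1 stood far above the other members and was read in monocytes. It had 1817 reads in Mono (0.0945%), 122 in B (0.00479%) and was listed at 0 in Gr and T of day 32. TM2 had 492 reads in Gr (0.0342%) and 278 in Mono (0.0145%). TM3 had 472 in Gr (0.0328%) and 225 in Mono (0.0117%). Both were listed at 0 in B, so they belong to the large group without a B count. TM7 was in all 3 lineages that a member can have, with 440 reads in Gr, 308 in Mono and 243 in B. TM5 and TM6 were in Gr only, with 462 and 441 reads. TM4 had 462 reads in Gr and 138 in Mono, and TM8 had 429 and 235. TM9, with 407 reads in Gr and 187 in B, was listed at 0 in Mono. Of these 10, TM1 and TM10 were the only ones with their highest share in Mono, which for TM10 was 0.0274% (527 reads) against 0.00827% in Gr (119 reads) and 0.00404% in B (103 reads).

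Outside the first 10, the next named members of 5 of the 6 classes had 0.0211 to 0.0261% of reads in their higher library. In the sixth class, both without B, the 3 highest members are TM2, TM3 and TM4, and TM11, given below, had 0.0265%. Among members of Gr only, TM15 had 350 reads and no B count, and TM36 and TM46 had 316 and 306 reads in Gr with 272 and 253 in B. Among members of Mono only without B, TM12 had 502 reads, TM24 had 441 and TM47 had 405. TM18 and TM32 were in Mono only with B, at 455 and 424 reads in Mono and 127 and 113 in B. TM21 was in all 3, with 333 reads in Gr, 267 in Mono and 167 in B. At the other end, TM4227, TM4228 and TM4229 had 101 reads in Mono, the smallest count in the table, and just entered the rule. Of these last 3, TM4228 also had 115 reads in B.

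In B and Mono of day 32 the counts gathered at steps of reads, and most members there lay on the lowest one listed. In Gr no second step was found. In bins of 10 reads, all barcodes of B at day 32 had maxima at 110 to 120, 220 to 230 and 340 to 350 reads, with 3468, 529 and 103 barcodes, and a low of 126 at 160 to 170. 709 of the 1031 members in B (68.8%) had fewer reads than that low, as had 59.6% of the returning barcodes in B. In Mono of day 32 the maxima were at 120 to 130 and 180 to 190 reads, with 1310 and 471 barcodes and a low of 381 between them. 1532 of 2364 members in Mono (64.8%) lay under that low, against 50.9% of the returning barcodes. The single maximum in Gr, at 110 to 120 reads, held 1271 barcodes, 395 of them members. The spacing was 110 reads in B and 60 in Mono, so in Mono it was smaller than the smallest count listed. Whether a step is 1 copy of template DNA was not tested.

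Members in both lineages had a lower share in Mono than in Gr more often than the reverse, as did all barcodes in both. 346 of the 483 members were higher in Gr and 137 higher in Mono. Of all 3286 barcodes in both, 63.5% were higher in Gr. The median log2 ratio of the Mono to the Gr share was −0.37 (95% interval of the median −0.42 to −0.30), with quartiles of −0.77 and 0.09. It was −0.22 in the 2743 returning barcodes in both. 66 members (13.7%) were higher in Gr by 2-fold or more, against 12.9% of the 3286 barcodes of any kind in both. 14 members (2.90%) were higher in Mono by 2-fold or more, against 5.33%. The limit of 100 reads is 0.00695% in Gr and 0.00520% in Mono, so the lowest share that can be listed is higher in Gr. With only shares above 0.0131% counted as listed in every library, 159 members were in both and the median was −0.0077, close to 0. With 200 reads or more in every library it was −0.32 over 119 members, and with 500 it was −0.39 from 1 member. A minimum in reads keeps the lowest listed share higher in Gr than in Mono, so these values do not remove that difference. Only the minimum in shares made it alike in both.

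The Gr and Mono levels of the members in both were nearly unrelated. Over these 483 barcodes Pearson's r of the log2 shares was 0.13 and Spearman's rho 0.11, which is a description over barcodes of 1 pair of libraries near their limit. In the returning barcodes r was 0.37 and rho 0.21. The ranges were not alike, and r depends on the range. The highest counts of any returning barcode were 3447 reads in Gr and 3009 in Mono, against 492 and 1817 of any member. Of the 28 members in both with at least 0.02% in the higher library, TM11 was the most Mono-weighted. It had 510 reads in Mono and 108 in Gr, a log2 ratio of 1.82. TM10 followed at 1.73 and TM20, with 450 and 113 reads, at 1.58. TM4 was the most Gr-weighted at −2.16. TM35 had 317 reads in Gr and 101 in Mono (−2.07), and TM41 had 313 and 119 (−1.81). The sequences of the 4 not shown above are given here, so that each extreme can be traced.
TM11: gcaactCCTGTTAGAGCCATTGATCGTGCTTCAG
TM20: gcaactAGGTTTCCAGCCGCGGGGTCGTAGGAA
TM35: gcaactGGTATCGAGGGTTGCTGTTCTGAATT
TM41: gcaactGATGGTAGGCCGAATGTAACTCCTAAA

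Members that were also read in B mostly had a lower share there than in the higher of Gr and Mono, as had returning barcodes. Over the 1031 of them the median share was 0.00482% in B and 0.00848% in the higher of Gr and Mono. 182 (17.7%) had a B share above the higher myeloid share, and so had 17.7% of the 3983 returning barcodes in B. The log2 ratio of B to the higher myeloid share ran from −4.30 to 1.60, with a median of −0.71, against −0.76 in the returning barcodes. Taking the higher of the Gr and Mono shares raises the myeloid side, so a lower B share is partly built in. The limit in B is lower as a percent than in Gr or Mono, so B shares could be listed at levels where myeloid shares could not.

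At like read level, a smaller share of members than of returning barcodes was listed in the other lineages. Of members with more than 0.005 and up to 0.01% of Gr reads, 237 of 1469 (16.1%, 14.3 to 18.1%) were also in Mono, against 1122 of 3062 returning barcodes (36.6%, 34.9 to 38.4%). From 0.01 to 0.02% of Gr reads it was 226 of 841 members (26.9%, 23.9 to 30.0%) and 1364 of 2933 returning barcodes (46.5%, 44.7 to 48.3%). From 0.02 to 0.05% it was 20 of 38 members (52.6%, 35.8 to 69.0%) and 233 of 329 (70.8%, 65.6 to 75.7%). With the level taken in Mono, 18.2% of 1870 members and 29.5% of 5010 returning barcodes were also in Gr in the lowest of these classes, and 28.0% of 472 and 43.9% of 2358 in the next. The B library was similar. Of members at 0.005 to 0.01% of Gr reads 23.7% (21.5 to 25.9%) were in B, against 34.3% (32.6 to 36.0%), and at 0.01 to 0.02% 27.8% (24.8 to 31.0%) against 40.5% (38.8 to 42.3%). Members and returning barcodes all had a Gr or Mono count at day 32 and were parted by later counts alone. That does not make the comparison independent of day 32 level. The share never listed again was lower at higher levels, as given below. Level was taken here from a Gr or a Mono count near its limit, so true levels may differ between the groups within a class. Whether such a difference accounts for the lower shares was not tested. No test was made between the groups, since barcodes are not replicates.

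The share never listed again was lower at higher day 32 levels. Of barcodes at 0 in T whose higher myeloid share was 0.005 to 0.01%, 2937 of 9108 (32.2%, 31.3 to 33.2%) were members. It was 1235 of 5769 (21.4%, 20.4 to 22.5%) from 0.01 to 0.02%, 56 of 623 (8.99%, 6.86 to 11.5%) from 0.02 to 0.05% and 1 of 50 above that, which was TM1. By class, 34.1% of barcodes in Gr only, 27.4% of those in Mono only and 15.0% of those in both were members. With a B count it was 26.9%, 21.9% and 10.1%, and without one 37.4%, 29.8% and 18.2%. Later counts are part of the rule, so these shares are descriptions.

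Most of the day 32 myeloid barcodes were listed at 0 in later myeloid libraries, and members are those listed at 0 in the later lymphoid libraries as well. Of the 15550 barcodes at 0 in T, 12406 (79.8%) were listed at 0 in all later Gr and Mono libraries. 4229 of these 12406 (34.1%) were members, 8173 returned in T or B without Gr or Mono, and 4 were listed later in nRBC alone. Of the 11321 returning barcodes 88.2% were in some later B library, 54.8% in T, 23.8% in Gr and 18.9% in Mono. 3346 returned in 1 library only, of which 2381 in a B library and 854 in a T library. Leaving out any single later day gave 4229 to 5103 members, the most without day 187.

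By their kept reads, the later libraries were deep enough to list members at their day 32 share, with 2 exceptions. This follows from the rule and the library sizes and is no finding about members, since any barcode with the 101 reads needed in Gr or Mono of day 32 would pass. Taking the higher of the Gr and Mono shares, each of the 4229 would have had over 100 reads in 32 of the 34 later libraries, with a median of 167 to 325 reads by library. In Gr of day 119 the median would have been 228 reads and in Mono of day 119 it would have been 222. The exceptions were T and B of day 494, the libraries with the fewest kept reads, where 519 and 585 members would have passed. Depth aside, some later libraries listed few barcodes of any kind. Gr listed 2013 at day 119 and 4729 at day 187, but 69 at day 365 and 18 at day 553. Mono listed 808 and 3077, then 197 and 13, on the same days. EOS of day 494 listed 36 and CD34p of day 553 listed 12. Every later T and B library listed 1019 or more. A 0 in a library of few barcodes is shared by nearly every day 32 barcode. A listed 0 bounds a member's own share in the 32 libraries at 0.00261 to 0.00508% of reads. It bounds the sum over members only loosely. If each held 100 reads, all members together would equal 15.7% of the kept reads of Gr and 16.1% of those of Mono at day 119. By day 553 the bounds were 11.1% and 11.2% of kept reads. Kept reads hold listed counts only, so as a share of a library that includes such unlisted reads these bounds would be lower. How far the drawing of few DNA copies into a library set these zeros was not tested.

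The highest barcodes that missed the rule through 1 later library had Mono counts of day 32 near that of TM1. At day 32, OUT1 had 1772 reads in Mono and 152 in Gr, and it missed the rule through 151 reads in T of day 365. OUT2 had 1679 reads in Mono and 173 in T of day 119. OUT3 had 1672 in Mono, 133 in Gr and 108 in B, and 514 in T of day 119. These are the highest 3 of the 3346 that returned in 1 library. The highest of the 35 that missed through T of day 32 alone was OUT4, with 225 reads in Gr, 102 in B and 3787 in T. OUT5 had 296 in Mono and 3127 in T, and OUT6 had 207 in Gr, 113 in B and 2679 in T. The sequences of OUT1 to OUT3 are shown, since among the barcodes named here their day 32 levels are the nearest to that of TM1.
OUT1: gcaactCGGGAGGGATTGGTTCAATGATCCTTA
OUT2: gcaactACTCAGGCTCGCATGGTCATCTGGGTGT
OUT3: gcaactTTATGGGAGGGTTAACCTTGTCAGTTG

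Sequence, which the rule did not use, gave no near copies of members by mismatch. No member differed by 1 mismatch from any other sequence of the table, over the bases before the adapter or over all 50 bases. Such neighbours were rare in the whole table. Before the adapter, 7 of the 44423 sequences (0.0158%) and 2 of the 11321 returning barcodes (0.0177%) had one, and over all 50 bases 0 had one. The 0 for members is thus near the share over all sequences and sets members apart from no others. Over the first 33 bases, the nearest other sequence was a median of 10 mismatches away for members and 10 for returning barcodes, and 76 members (1.80%) and 1.62% of returning barcodes had one fewer than 8 mismatches away. The only pair in the table that differed by 1 inserted or deleted base was TM1204 and TM3099, both members. Their sequences before the adapter had 12 and 13 bases. The highest count of any barcode was 3447 reads in Gr of day 32 and 3009 in Mono of that day.

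Members had nearly the same composition as the returning barcodes. 4160 began with the usual 6 bases, and 68 (1.61%) had them from base 2, against 1.85% of returning barcodes. 33 bases lay before the adapter in 77.9% of members and 79.9% of returning barcodes. The GC content of the variable part was 53.0% ± 9.91 (SD over 4075 members with an exact adapter start) and 53.5% ± 9.72 (SD over 11061 returning barcodes). The adapter start was not exact in 154 members (3.64%, 3.10 to 4.25%) and in 259 returning barcodes (2.29%, 2.02 to 2.58%). It was not exact in 7 of the 56 members from 0.02 to 0.05% (12.5%, 5.18 to 24.1%), TM2, TM9 and TM10 among them, against 16 of 567 returning barcodes (2.82%, 1.62 to 4.54%).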

How the data were processed

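The authors deposited 1 table of read counts per barcode sequence, with 44423 sequences of 50 bases and 38 libraries. Per the labels' protocols, 28 cycles of PCR were run on 200 ng of DNA. For the read counting, the program, any merging and the count threshold are not given in the labels used here. The unit was taken from the values, and 0 columns went unused. Sequences were cut at the first 7 adapter bases, and shares are of a library's kept reads. A library has 1 replicate, so only counts, shares and exact intervals were computed, with Python 3.11.15, pandas 2.3.3, NumPy 2.4.6 and SciPy 1.17.1. The rule and the search for mismatches were checked on simulated tables. Steps were maxima of 10-read bins over the bins beside them, in bins that held a set minimum of barcodes. Each further maximum had to rise above the low before it by over 3 times the counting error. At most the first 3 maxima were kept. Named barcodes were the 10 highest members, the 3 highest of each class, the 3 most Mono-weighted and 3 most Gr-weighted with 0.02% or more, the 3 lowest, and the 3 highest outside on each side. The TM1204 pair was named after its values were seen. Members and lists were chosen with earlier results of these data known. Alternatives changed the minimum count, the T condition, the later libraries and the merging of sequences.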

Additional observations from a re-analysis of the deposited data

How the results depend on the processing

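The minimum count set most of the values. Reported were 4229 members with 23.7% of Gr, 19.8% of Mono and 6.44% of B reads, of which 1865 were in Gr only, 1881 in Mono only, 483 in both and 1031 in B. With 200 reads or more required in every library there were 1794, with 12.6% of Gr, 17.0% of Mono and 1.96% of B reads, and 598 in Gr only, 1077 in Mono only, 119 in both and 182 in B. With 500 reads there were 66, with 0.433%, 2.17% and 0.0197%, and 9, 56, 1 and 1. With only shares above 0.0131% there were 2138, with 22.4%, 17.0% and 1.01%, and 1162, 817, 159 and 63, and a median log2 Mono to Gr ratio of −0.0077. With only later Gr and Mono at 0 there were 12406, with 75.9%, 71.0% and 26.0%, and 4683, 5416, 2307 and 3803, and a ratio of −0.27. Without the T condition the shares were 23.9%, 19.9% and 6.54%. Leaving out 1 later day gave shares of 23.7 to 29.1% (Gr), 19.8 to 24.7% (Mono) and 6.44 to 8.20% (B), 1865 to 2225 members in Gr only, 1881 to 2261 in Mono only, 483 to 639 in both and 1031 to 1306 in B, and ratios of −0.38 to −0.34. With the mean of the Gr and Mono shares as the level, the share seen again was 76.7%, 87.5%, 94.4% and 100% in place of 67.8%, 78.6%, 91.0% and 98.0%, in the classes from 0.005% upward. By that measure 8236 of the barcodes lay under 0.005%, a class that is empty otherwise, and 66.5% of them were seen again. A barcode in 1 lineage has a lower level by the mean. Merging sequences by 1 mismatch or by read frame, and leaving out nRBC, EOS and CD34p, moved none of the 9 values by more than their intervals or 1.5 times. The mergings could not have moved them. 0 members had a neighbour at 1 mismatch or the same bases before the adapter as another sequence, and 0 sequences were read 1 base later. A stricter minimum also drops later counts, so some returning barcodes become members. No paired analysis was possible because each lineage and day has 1 library and no result comes from a test. Counts of 100 reads or fewer limit all of these values.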

Other observations

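Read counts had several maxima in the 3 later libraries that were examined for them. In T of day 119 the maxima lay at 130 to 140, 260 to 270 and 400 to 410 reads, with 1481, 177 and 58 barcodes, and in B of day 187 at 120 to 130, 240 to 250 and 370 to 380, with 2344, 441 and 144. In B of day 119 there were only maxima at 160 to 170 and 230 to 240, with 822 and 260 barcodes. Their spacing of 70 reads was smaller than the smallest count listed, as it was in Mono of day 32. 68.9% of the 3256 returning barcodes in T of day 119 had fewer reads than the low at 200 to 210. In T of day 32, whose zero is part of the rule, 347 of 525 barcodes had from 3000 up to 4000 reads and 31 had under 1000.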
